A study of Mus musculus with 16 samples.

Results

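In all, 4 genes of 48440 in the count tables code for atypical chemokine receptors, namely Ackr1, Ackr2, Ackr3 and Ackr4, and their levels were followed through the lymphatic, blood endothelial and reticular cells of mouse inguinal lymph nodes. The 4 genes were taken by symbol, whatever their values. On GRCm38 with the GENCODE annotation vM21, all 4 are protein coding: Ackr1 (ENSMUSG00000037872.5) lies at chr1:173331886-173333750 on the minus strand, Ackr2 (ENSMUSG00000044534.7) at chr9:121898355-121911074 on the plus strand, Ackr3 (ENSMUSG00000044337.5) at chr1:90203980-90216751 on the plus strand, and Ackr4 (ENSMUSG00000079355.3) at chr9:104084157-104126933 on the minus strand. The identifiers are those of the count tables, and the annotation carries Ackr2 and Ackr4 under the later versions ENSMUSG00000044534.8 and ENSMUSG00000079355.5.

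Atypical chemokine receptors bind chemokines as other chemokine receptors do but do not couple to G proteins. They recruit arrestins or cycle constitutively, carry their ligands into the cell for degradation or across it, and so set how much chemokine is left for leukocytes to follow. ACKR1, the Duffy antigen, binds many inflammatory chemokines and is a known feature of venules. ACKR2 (D6) degrades inflammatory CC chemokines in lymphatic endothelium. ACKR3 (CXCR7) takes up CXCL12 and, in lymphatic vessels, the peptide adrenomedullin. ACKR4 (CCRL1) takes up CCL19, CCL20, CCL21 and CCL25, and is known on the lymphatic endothelium of the ceiling of the subcapsular sinus, where its uptake of CCL21 helps dendritic cells enter the node.

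Because Ackr2 and Ackr3 were each higher in several cell classes of the same draining nodes, the 250 bases before the start of each gene are given here from RefSeq on GRCm38.p6 (4 of 4 receptor genes had a promoter entry), 5′ to 3′ on the gene's own strand, with capitals for matches to the motifs searched. The Ackr2 stretch is chr9:121898105-121898354 on the plus strand and the Ackr3 stretch is chr1:90203730-90203979 on the plus strand.
Ackr2: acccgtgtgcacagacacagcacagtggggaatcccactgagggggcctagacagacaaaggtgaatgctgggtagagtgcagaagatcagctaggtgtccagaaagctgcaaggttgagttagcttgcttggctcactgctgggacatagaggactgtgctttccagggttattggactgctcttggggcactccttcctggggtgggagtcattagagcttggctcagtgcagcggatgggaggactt
Ackr3: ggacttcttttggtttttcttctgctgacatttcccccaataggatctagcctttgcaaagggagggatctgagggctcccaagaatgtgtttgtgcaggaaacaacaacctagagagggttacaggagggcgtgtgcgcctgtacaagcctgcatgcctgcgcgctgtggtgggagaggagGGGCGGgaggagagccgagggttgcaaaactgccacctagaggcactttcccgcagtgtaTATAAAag
On both strands of the window from 250 bases before to 50 bases after the start, 3 motifs were looked for: the letters TATAAA, held by 13.6% of 32851 mouse promoters of that length, the letters GGGCGG, held by 35.7%, and the letters CCGGAA, held by 14.9%. The Ackr3 window held the first of these 8 bases before the start and the second 68 bases before it. None of these letters was in the Ackr2 window, which says nothing of the factors that bind there. The stretches have 7 CpG dinucleotides and 54% GC for Ackr3, and 2 CpG dinucleotides and 55.2% GC for Ackr2. A match is a run of letters and was not tested as a site.

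The study implanted 500000 MC38 cells, a mouse colon carcinoma line, under the skin of the lower right flank of C57Bl/6 mice aged 8 weeks, either alive (3 mice) or after fixation in 4% paraformaldehyde (3 mice), and took the draining inguinal node and the contralateral non-draining node on day 12. The 16 libraries are 3 live draining, 3 live non-draining, 3 fixed draining, 3 fixed non-draining and 4 naive nodes, the naive nodes coming from mice with no inoculum. All cells were enriched with an antibody to podoplanin, a protein of lymphatic endothelium and fibroblastic cells, so that blood endothelium was sparse in every group, and MC38 stands for 1 transplanted cell line rather than for tumors in general. The question of the design was what a live tumor does to the stroma of its draining node beyond what fixed cells do.

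Libraries held 38617010 to 48945961 UMIs (unique molecular identifiers, each a captured RNA molecule) in live draining nodes, 11732665 to 24790181 in live non-draining nodes, 24402526 to 32580407 in fixed draining nodes, 7486725 to 13613641 in fixed non-draining nodes and 24094935 to 32918088 in naive nodes. Of 68741 barcodes 50386 were kept as cells, and 22197 of these fell into 14 stromal classes. Of the kept cells, 663 carried a barcode that also occurs in another library, at most 10 for any pair of libraries. Nothing in the labels ties the letters of the libraries to separate animals beyond the group, so the p-values measure the spread between these libraries.

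The classes were clusters of cells named from markers, with the 4 receptor genes left out of both steps, and "like" marks a name that rests on those markers. The lymphatic endothelial cells (LECs) comprised 4335 cLEC-like cells of the sinus ceiling, 1822 fLEC-like cells of the sinus floor, 1111 CorLEC-like cells of the cortical sinuses, 1565 MedLEC-like cells of the medullary sinuses, and 1724 cells called Clec4g-high LECs. The last class rests on 1 marker, and its next best name was the fLEC. Clec4g itself was 16.1 to 24.4 CPM (UMIs of the gene per 1000000 UMIs of the class in a library) in its live draining libraries, against 53.0 to 78.9 CPM in its live non-draining libraries. Blood endothelial cells (BECs) comprised 194 HEV-like cells, scored as high endothelial venules, and 572 capillary and arterial BEC-like cells. The other classes were 558 pericyte-like cells, 930 perivascular (PRC-like), 3603 T zone (TRC-like), 2514 marginal (MRC-like) and 2106 medullary (MedRC-like) reticular cells, 486 follicular dendritic (FDC-like) cells and 677 cells of a class the study calls activated stroma (ActSC-like). A class was measured in a library where it had at least 10 cells, which left 5 libraries for the HEV-like cells. A sum over a class cannot tell fewer expressing cells from less RNA per cell.

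Ackr4 was a receptor of lymphatic endothelium, and within it of the cLEC-like cells. These cells held 1301 ± 205.8 CPM of Ackr4 (SD, n = 16 libraries), against 232.6 ± 84.6 CPM in CorLEC-like cells. The MedLEC-like, Clec4g-high and fLEC-like classes averaged 37.6 ± 30.9, 21 ± 16.6 and 18.7 ± 14.5 CPM. The cLEC-like level exceeded the CorLEC-like level in 16 of 16 libraries, by 1068 ± 233.3 CPM, and the CorLEC-like level exceeded the MedLEC-like level in 16 of 16, by 195 ± 88.3 CPM. The order among the 3 lower lymphatic classes was within the spread of the libraries. No reticular class averaged over 10.8 CPM, against 8.53 CPM in clusters of lymphocytes.

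With each cell thinned to 2000 UMIs, an Ackr4 UMI was found in 71.9% of 4013 cLEC-like cells (exact binomial 95% interval 70.5 to 73.3%, which covers counting error only) and in 19.6% of 974 CorLEC-like cells (17.2 to 22.3%). The unthinned shares were 81.8% and 27.4%. In lymphocytes, given here as a measure of free RNA in the droplets, 1.68% of cells showed an Ackr4 UMI after the same thinning. The median depth was 8644 UMIs in cLEC-like cells and 1246 UMIs in lymphocytes.

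Ackr2 had its highest level in a different lymphatic class. CorLEC-like cells averaged 114.6 ± 35.2 CPM and cLEC-like cells 63.8 ± 25.4 CPM, the CorLEC-like level being higher in 16 of 16 libraries by 50.8 ± 19.0 CPM. The MedLEC-like, fLEC-like and Clec4g-high classes followed at 29.8 ± 19.9, 23.5 ± 11.6 and 15.8 ± 8.65 CPM, and cLEC-like cells exceeded MedLEC-like cells in 15 of 16 libraries. The steps among these 3 classes did not exceed the spread. Every reticular class averaged 2.11 CPM or less, below the 4.06 CPM of lymphocytes, which held it in clusters of B cells and had no UMI of it in clusters of T cells. That lymphocyte level itself differed between the nodes, at 8.45, 11.2 and 8.76 CPM in live draining libraries, against 3.54, 4.44 and 2.43 CPM in live non-draining libraries. After thinning, 17.6% of CorLEC-like cells (15.2 to 20.1%) and 11.6% of cLEC-like cells (10.7 to 12.7%) had an Ackr2 UMI, against 1.43% of lymphocytes. None of 405 thinned capillary and arterial BEC-like cells had one, which allows up to 0.741% of cells with an Ackr2 UMI at that depth and sets no limit on the cells that express it. Without thinning the share was 0.175%.

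Ackr3 spread over more lineages than the other receptors. It averaged 238.7 ± 34.6 CPM in cLEC-like cells and 99.4 ± 75.0 CPM in PRC-like cells. The study places PRCs near blood vessels and cites a report of a subset of them in the subcapsular sinus. Capillary and arterial BEC-like cells held 45.7 ± 23.6 CPM, pericyte-like cells 42.9 ± 26.3 CPM, TRC-like cells 32.0 ± 7.68 CPM and CorLEC-like cells 31.5 ± 31.4 CPM. The cLEC-like cells exceeded the PRC-like cells in 15 of 16 libraries, by 139.3 ± 88.8 CPM, and the later neighbours in the order lay within the spread of each other. FDC-like, MRC-like and MedRC-like cells were lower, at 13.3, 10.98 and 7.62 CPM on average.

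After thinning, 31.1% of cLEC-like cells (29.6 to 32.5%), 15.2% of PRC-like cells (12.7 to 17.9%) and 6.23% of TRC-like cells (5.44 to 7.10%) had an Ackr3 UMI, against 0.477% of lymphocytes. None of 135 thinned HEV-like cells had one, which allows up to 2.22% of cells with an Ackr3 UMI at that depth, and without thinning the share was 2.06%. In cLEC-like cells Ackr3 and Ackr4 were found together in 943 of 4013 thinned cells, where their separate shares multiply to 896.4, and Ackr2 and Ackr4 were found together in 360 cells against 336.0. In CorLEC-like cells Ackr3 and Ackr4 met in 22 of 974 cells against 7.65. These are descriptions of cells that share libraries.

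**Figure D1:**
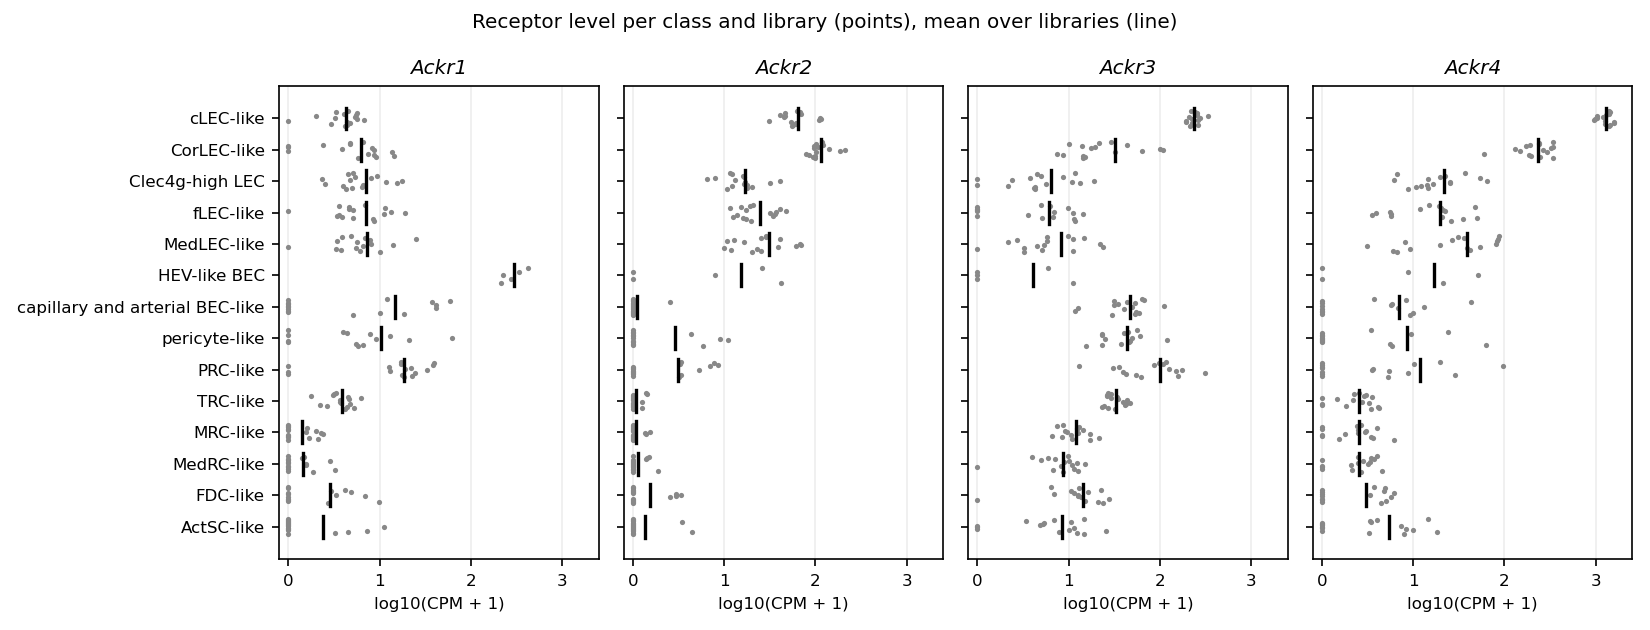
Level of each receptor in the 14 classes, 1 panel per receptor, on a log10(CPM + 1) axis. Grey points are libraries and black lines the mean over libraries. Ackr4 peaks in cLEC-like cells (mean 1301 CPM), Ackr2 in CorLEC-like cells (114.6 CPM), Ackr3 in cLEC-like cells (238.7 CPM) and Ackr1 in HEV-like cells (295.3 CPM).

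Ackr1 was highest in the HEV-like cells, the venules through which lymphocytes enter from blood. It reached 271.7 CPM in live non-draining A (44 UMIs), 213.4 CPM in the fixed draining library with enough cells (21 UMIs), and 226.6, 339.5 and 425.2 CPM in 3 naive libraries. All 5 values lay above every other class of the same library, the mean difference to the next class, PRC-like cells, being 269.1 ± 90.4 CPM. The mean of 295.3 ± 87.8 CPM depends on how these few cells are gathered: it was 123.0 CPM when each cell took its class from its own markers, and no HEV-like cluster was found with LogNormalize or with at most 10% mitochondrial UMIs. PRC-like cells averaged 17.6 ± 11.9 CPM, capillary and arterial BEC-like cells 13.6 ± 19.2 CPM, and the 5 lymphatic classes between 3.23 and 6.25 CPM. After thinning, 37.0% of 135 HEV-like cells (28.9 to 45.8%) had an Ackr1 UMI, against 0.112% of lymphocytes. No live draining library had 10 HEV-like cells, so the draining effect on Ackr1 in these vessels could not be measured.

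Clustered alone, the 766 cells of the 2 blood endothelial classes fell into 8 clusters. Of these, 1 cluster of 95 cells was led by Kcnj8, Steap4 and Cygb, with Abcc9 among its 10 leading genes, and Kcnj8 and Abcc9 are known from pericytes, so it is given by its genes alone. The cluster led by Chst4, a sulfotransferase that builds the ligands of L-selectin in high endothelium, and Ly6i held 337.9 CPM of Ackr1 in its sum, with an Ackr1 UMI in 76.9% of its 104 cells. A second cluster that scored as high endothelial, led by BC018473 and Ccl2, held 187.3 CPM in 94 cells. An arterial-scored cluster led by Fabp4, Cd36 and Mgp held 92.6 CPM, but its 25 UMIs lay in 4.08% of 98 cells. The other 5 clusters held 1.52 to 13.98 CPM. Ackr3 showed the opposite layout, with 40.1 to 55.6 CPM in the 6 clusters that did not score as high endothelial, the Kcnj8-led one at 50.1 CPM among them, against 2.96 and 0 CPM in the 2 that did.

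**Figure D2:**
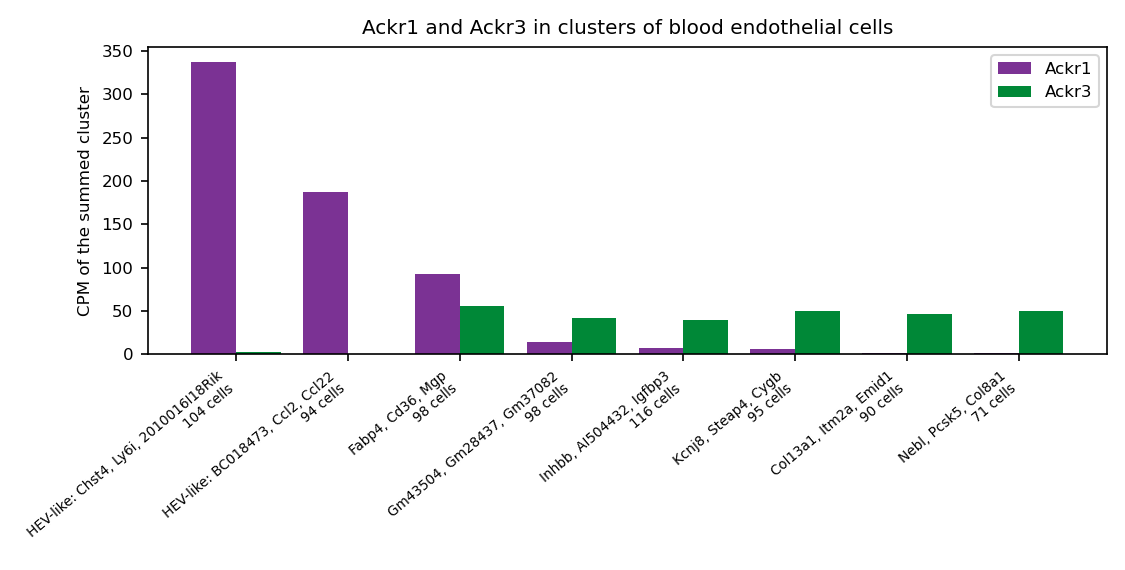
Ackr1 (purple) and Ackr3 (green) in CPM of the summed UMIs of each blood endothelial cluster, which is labelled by its leading genes and its number of cells. The 2 HEV-like clusters at the left hold 337.9 and 187.3 CPM of Ackr1 and at most 2.96 CPM of Ackr3, and the other 6 hold 40.1 to 55.6 CPM of Ackr3.

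Over the 14 classes, genes with the profile most like a receptor's were ranked by the Pearson correlation of log2(CPM + 1), computed on class means for 10489 genes and given as a description. For Ackr1 they were BC018473 (0.86), Oit1 (0.86), Chst4 (0.86), Gm525 (0.84) and Fut7 (0.84), all highest in HEV-like cells. For Ackr2 they were Gpm6a (0.97), Kpnb1 (0.96), Prkcz (0.95), C5ar2 (0.95) and Sh3gl3 (0.95). For Ackr3 they were Zyx (0.95), Acadvl (0.89), Acot9 (0.88), Tbxa2r (0.87) and Gatsl3 (0.85). For Ackr4 they were Galnt1 (0.96), Lrrn1 (0.96), Dtx1 (0.95), Ttc9 (0.95) and Rassf10 (0.94).

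Live draining nodes were then set against live non-draining nodes, class by class. Of 52 pairs of a receptor and a class, 23 had enough counts for a test, and 10 changed, 8 higher and 2 lower in live draining nodes (edgeR quasi-likelihood test, Benjamini-Hochberg adjusted p under 0.05 over all genes of the class). Over all genes of these classes, 14% of 101767 gene and class pairs were called in the same comparison. The 8 were Ackr2 in 4 lymphatic classes, Ackr3 in CorLEC-like, Clec4g-high and PRC-like cells, and Ackr1 in Clec4g-high LECs, and the 2 were Ackr4 in cLEC-like and fLEC-like cells. The share of genes called differed widely between classes, at 24.1% in cLEC-like, 1.9% in CorLEC-like, 10.4% in Clec4g-high, 42.5% in fLEC-like, 23.2% in MedLEC-like and 4.42% in PRC-like cells.

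Ackr2, the scavenger of inflammatory CC chemokines, was the receptor that moved in most lymphatic classes. In cLEC-like cells it measured 108.0, 113.3 and 110.6 CPM in live draining libraries A, B and C, against 44.5, 45.9 and 39.5 CPM in live non-draining libraries A, B and C. No live draining library overlapped the live non-draining ones, and the 3 lay close to each other. The log2 fold change was 1.36 ± 0.14 (SE, adjusted p = 1.14e-08).

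The MedLEC-like cells showed the largest Ackr2 fold of the 4 classes. They held 60.2, 68.9 and 66.8 CPM in live draining libraries, against 15.3, 9.70 and 11.9 CPM in live non-draining libraries, which rest on 13, 4 and 7 UMIs. The lowest live draining library was above the highest live non-draining library, and the log2 fold change was 2.41 ± 0.30 (adjusted p = 1.29e-06).

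CorLEC-like cells, where Ackr2 was highest, held 183.2, 208.3 and 138.7 CPM in live draining libraries, against 95.4, 105.8 and 94.7 CPM in live non-draining libraries. The groups did not overlap, with live draining C the closest (log2 fold change 0.86 ± 0.19, adjusted p = 0.00714). Without live draining B the log2 fold change was 0.73 and the call was lost (adjusted p = 0.0722). In Clec4g-high LECs the values were 31.1, 16.1 and 39.8 CPM, against 12.3, 5.43 and 6.97 CPM, again with no overlap (log2 fold change 1.55 ± 0.34, adjusted p = 0.00203).

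The fLEC-like cells did not pass. Ackr2 measured 35.3, 31.0 and 35.9 CPM in live draining libraries, against 46.8, 16.3 and 40.2 CPM in live non-draining libraries, which hold 11, 4 and 11 UMIs, and the 3 live draining values lie inside the range of the live non-draining ones. The log2 fold change was 0.31 ± 0.30 (adjusted p = 0.426).

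**Figure D3:**
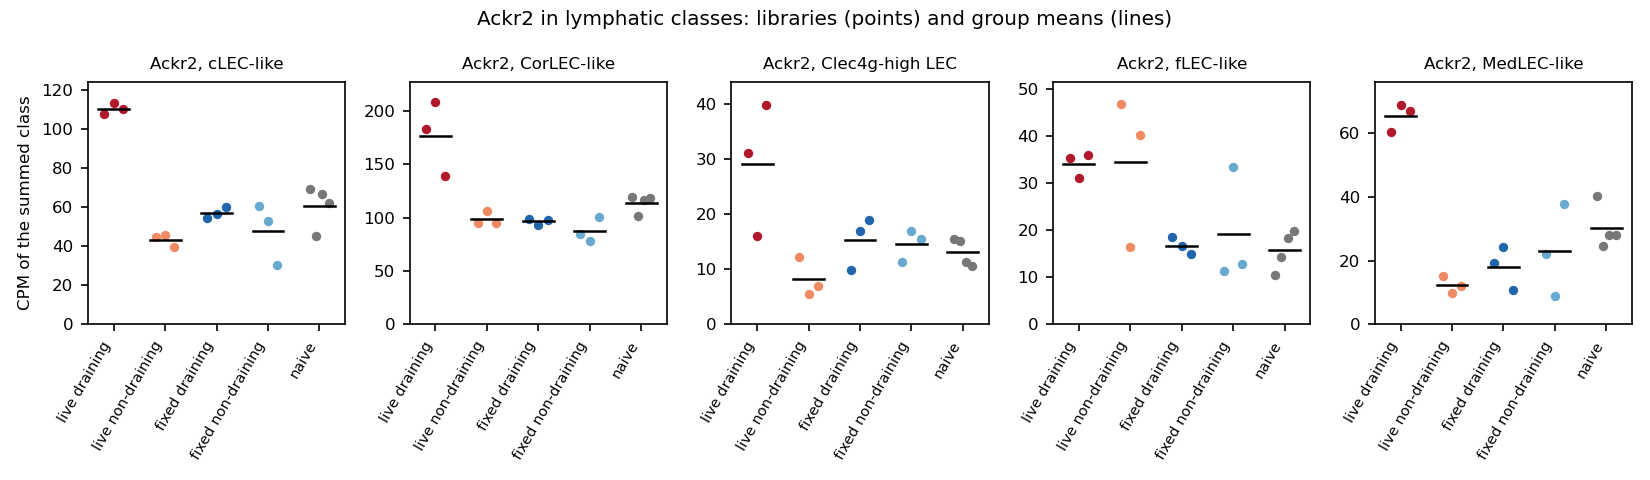
Ackr2 in CPM of the summed class in the 5 lymphatic classes, with each library a point, group means as lines and the groups along the axis from live draining at the left to naive at the right. The live draining libraries stand at 108.0 to 113.3 CPM in cLEC-like cells, above every library of the other 4 groups, which end at 69.3 CPM.

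The lymphatic classes other than the CorLEC-like, which was 1 cluster, held several clusters whose shares differed between the nodes, so Ackr2 was also tested inside clusters, an alternative added after the data were seen. In the cLEC-like class all 5 clusters had a higher fitted level in live draining nodes, with log2 fold changes of 0.978 to 1.603, called in 3 of them. These 3 were the cluster led by Pglyrp1 and Dkk2 (0.98, adjusted p = 0.00214) and those led by Fosb (1.603, adjusted p = 0.00782) and by Egr2 and Nr4a2 (1.598, adjusted p = 3.75e-05). In the Marco-led MedLEC-like cluster, which held 52.9% of live draining and 19.1% of live non-draining MedLEC-like cells, the log2 fold change was 1.957 ± 0.42 (adjusted p = 0.00292). In the Clec4g-high cluster led by Ppp1r1a it was 1.22 ± 0.40 (adjusted p = 0.0491). In the other Clec4g-high cluster, led by Cxcl1, it was 2.30 ± 0.745 and not called (adjusted p = 0.109).

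Markers of other cells moved with these results. The summed level of the 7 fibroblastic markers was 248 to 287.9 CPM in live draining cLEC-like cells, against 55.1 to 96.9 CPM in live non-draining ones, 4 of the 5 tested being called higher. In MedLEC-like cells this sum was 124 to 196.6 CPM, against 56.1 to 62.4 CPM, and in Clec4g-high LECs 140.8 to 219.6 CPM, against 24.4 to 35.9 CPM, with 4 of 4 tested called higher. Ackr2 itself was 2.11 CPM or less in every reticular class. The markers of cLECs, which hold more Ackr2, also moved, summing to 289.6 to 436.6 CPM in live draining Clec4g-high LECs, against 62.5 to 113 CPM in live non-draining ones, and to 231.6 to 305.2 CPM in live draining MedLEC-like cells, against 106 to 172.2 CPM. The 10 genes of the tissue dissociation response, such as Fos and Hspa1a, moved in the other direction, with 10 of 10 called lower in live draining cLEC-like cells (median log2 fold change −1.64, against −0.01 over all genes) and 10 of 10 in MedLEC-like cells (−1.74 against −0.02). The part of these shifts in the Ackr2 results was not tested.

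Ackr4, the scavenger of CCL19, CCL20 and CCL21, fell slightly in its main class. The cLEC-like cells held 957.3, 993.4 and 1036 CPM in live draining libraries, against 1200, 1044 and 1311 CPM in live non-draining libraries. These did not overlap, though live draining C and live non-draining B differed by little, and the log2 fold change was −0.24 ± 0.08 (adjusted p = 0.0334). The call depended on single libraries and was lost without live draining A (−0.21, adjusted p = 0.109), live draining B (adjusted p = 0.0763), live non-draining A (adjusted p = 0.0636) or live non-draining C (−0.16, adjusted p = 0.235). The summed level of the other 5 cLEC markers, such as Cd36 and Btnl9, was 2964 to 3476 CPM in live draining cLEC-like cells, against 4136 to 4795 CPM in live non-draining ones.

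The clusters within the cLEC-like class differed in Ackr4, and so did the nodes in their clusters. Ackr4 was 1611 CPM in the Pglyrp1-led cluster, 1496 in the Egr2-led, 1222 in the Gm43023-led, 894.7 in the Fosb-led and 409.2 in the Igfbp5-led cluster. Their shares of live draining cLEC-like cells were 33.9, 9.22, 21.8, 18.01 and 17.1% in the same order, against 14.2, 26.9, 6.63, 31.8 and 20.5% of live non-draining ones. Within the Pglyrp1-led cluster alone Ackr4 was lower in live draining nodes by more than in the class (log2 fold change −0.61 ± 0.10, adjusted p = 1.02e-04). The other 4 clusters did not pass, with −0.02, −0.29, −0.41 and, in the Igfbp5-led cluster, 0.55 (adjusted p = 0.326).

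In fLEC-like cells Ackr4 was low throughout. It measured 4.68, 2.93 and 4.64 CPM in live draining libraries (15, 10 and 11 UMIs), against 21.3, 20.4 and 10.97 CPM in live non-draining libraries (5, 5 and 3 UMIs). The groups did not overlap, and the log2 fold change was −1.74 ± 0.60 (adjusted p = 0.0162), which was lost without live non-draining A (adjusted p = 0.0999) or B (adjusted p = 0.0868). This class changed its makeup between the nodes. The cluster led by Cxcl9, Ccl20 and Fgf23, with 2.0 CPM of Ackr4, held 573 of 678 live draining fLEC-like cells (84.5%), against 2 of 165 live non-draining ones (1.21%). Within the other cluster, led by Mucl2 and holding 24.99 CPM, the log2 fold change had the opposite sign and was not called (0.94 ± 0.60, adjusted p = 0.481).

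Ackr4 did not pass in the remaining lymphatic classes. CorLEC-like cells held 148.7, 264.2 and 130.2 CPM in live draining libraries, against 324.5, 345.1 and 172.2 CPM in live non-draining libraries, with live draining B inside the range of the live non-draining libraries (log2 fold change −0.65 ± 0.27, adjusted p = 0.235). MedLEC-like cells ranged from 2.10 to 79.8 CPM in live draining libraries, against 7.07 to 82.5 CPM in live non-draining ones (log2 fold change 0.03). Clec4g-high LECs held 24.4, 24.1 and 62.9 CPM, against 5.20, 13.6 and 53.0 CPM (1.03, adjusted p = 0.207).

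Ackr3, the scavenger of CXCL12 and adrenomedullin, was not called in the class where it was highest. The cLEC-like cells held 259.6, 222.2 and 273.3 CPM in live draining libraries, against 210.4, 332.5 and 254.1 CPM in live non-draining libraries. The live draining libraries lay inside the range of the live non-draining ones, and the log2 fold change was −0.03 ± 0.11 (SE, adjusted p = 0.891).

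Ackr3 rose in 3 classes where its level was lower. In CorLEC-like cells it measured 62.5, 106.7 and 99.1 CPM in live draining libraries (29, 42 and 35 UMIs), against 16.7, 18.4 and 12.9 CPM in live non-draining libraries (7, 4 and 3 UMIs). No library of either group overlapped the other (log2 fold change 2.43 ± 0.41, adjusted p = 3.62e-04). With cells of at most 10% mitochondrial UMIs the value was 1.597 and not called (adjusted p = 0.100). The summed BEC markers were 775.9 to 1130 CPM in live draining CorLEC-like cells, against 358.9 to 486.7 CPM in live non-draining ones, and the part of that in this result was not tested.

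PRC-like cells, the perivascular reticular class, held 148.0, 173.9 and 123.7 CPM of Ackr3 in live draining libraries, against 29.5, 35.1 and 11.9 CPM in live non-draining libraries, which rest on 7, 3 and 2 UMIs. The groups did not overlap (log2 fold change 2.63 ± 0.57, adjusted p = 0.00563), and the call was lost without live non-draining C (2.30, adjusted p = 0.0607). The 4 naive libraries lay between, at 86.3, 107.4, 97.6 and 114.6 CPM. The summed markers of the PRC-like class itself were 1761 to 2462 CPM in live draining nodes, against 479.4 to 866.9 CPM in live non-draining nodes, and those of BECs were 958.5 to 1545 CPM, against 421.2 to 677.6 CPM. Their part in the Ackr3 result was not tested.

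Clec4g-high LECs held 12.2, 9.83 and 17.98 CPM of Ackr3 in live draining libraries (11, 11 and 14 UMIs), against 1.42, 0 and 2.79 CPM in live non-draining libraries (3, 0 and 2 UMIs). The groups did not overlap, and the log2 fold change was 3.16 ± 0.63 (adjusted p = 5.21e-04) in the class and 3.27 ± 0.65 (adjusted p = 5.99e-04) within its Ppp1r1a-led cluster. The cLEC markers, however, summed to 289.6 to 436.6 CPM in live draining Clec4g-high LECs, against 62.5 to 113 CPM in live non-draining ones. The cLEC-like cells hold more Ackr3 than these cells, and the part of the cLEC markers in the result was not tested.

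Ackr3 did not pass in TRC-like cells against the live non-draining nodes. These held 46.6, 38.0 and 42.8 CPM in live draining libraries, against 34.1, 28.1 and 32.7 CPM in live non-draining libraries. The groups did not overlap, and the log2 fold change was 0.39 ± 0.15 (adjusted p = 0.121). In MRC-like cells the class gave 0.29 (adjusted p = 0.638), while its Hamp2-led cluster gave 3.90 ± 0.86 (adjusted p = 0.00219), on 117 UMIs in live draining and 1 UMI in live non-draining nodes, and its Kcnj15-led cluster −1.22 ± 0.52 (adjusted p = 0.105). MedLEC-like, MedRC-like, pericyte-like and capillary and arterial BEC-like cells gave log2 fold changes of 2.01, 0.75, 0.68 and 0.17, none called.

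**Figure D4:**
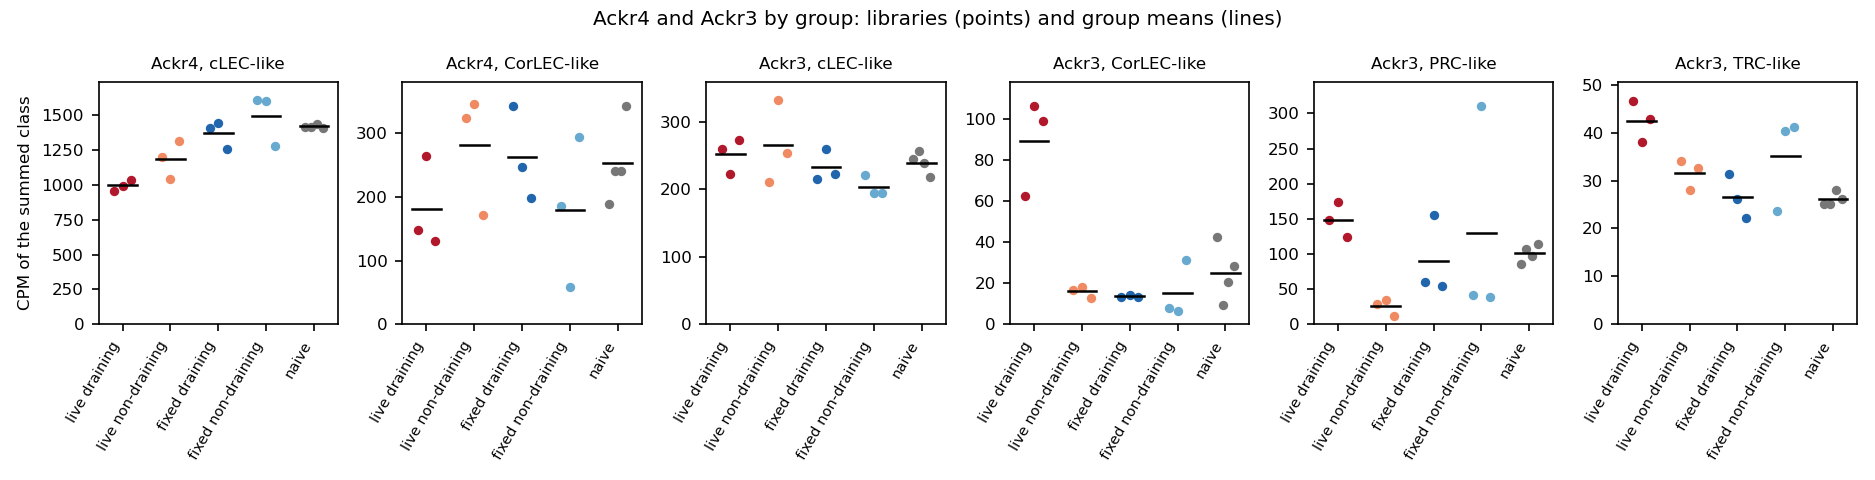
Ackr4 in cLEC-like and CorLEC-like cells and Ackr3 in cLEC-like, CorLEC-like, PRC-like and TRC-like cells, in CPM of the summed class, with each library a point and group means as lines. Ackr4 is 957.3 to 1036 CPM in live draining cLEC-like cells, against 1044 to 1311 CPM in live non-draining ones, and 1 fixed non-draining library stands at 311.0 CPM of Ackr3 in PRC-like cells.

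Ackr1 was called only in Clec4g-high LECs of the 3 classes with a test. It measured 14.4, 10.7 and 16.7 CPM in live draining libraries (13, 12 and 13 UMIs), against 3.78, 1.36 and 6.97 CPM in live non-draining libraries (8, 1 and 5 UMIs). All 3 live draining values lay above all 3 live non-draining ones (log2 fold change 1.81 ± 0.46, adjusted p = 0.00747), and without live non-draining A the call was lost (1.73, adjusted p = 0.0892). Within the Cxcl1-led cluster of this class Ackr1 gave 2.81 ± 0.88 and was not called (adjusted p = 0.0878). In cLEC-like and PRC-like cells the log2 fold changes were 0.28 and 0.76, neither called. The filter on low counts left the other pairs without a test, and only some of these are given here. Ackr1 in TRC-like cells was 2.70 to 2.73 CPM in live draining libraries, lower than the 3.44 to 5.26 CPM of live non-draining libraries. The fLEC-like class, whose values follow, changed its makeup between these nodes, as given above. In fLEC-like cells Ackr1 had 33, 62 and 29 UMIs in live draining libraries (10.3, 18.2 and 12.2 CPM), against 0, 1 and 1 UMI in live non-draining libraries (0, 4.08 and 3.66 CPM). Ackr3 there had 13.4, 10.2 and 5.91 CPM in live draining libraries and no UMI in the 3 live non-draining libraries, whose sums were at most 273400 UMIs against at least 2371000 in live draining libraries.

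Fixed MC38 cells served as the control for antigen without a growing tumor. In fixed draining against fixed non-draining nodes none of the 23 pairs was called by edgeR, 1 had an unadjusted p under 0.05, and 0.0865% of all gene and class pairs were called. Ackr2 in cLEC-like cells was 54.4, 56.6 and 60.4 CPM in fixed draining libraries, against 60.6, 53.0 and 30.4 CPM in fixed non-draining libraries, with overlap (log2 fold change 0.16 ± 0.15, adjusted p = 0.853). Ackr4 in cLEC-like cells was 1408, 1444 and 1255 CPM, against 1609, 1602 and 1278 CPM (−0.14, adjusted p = 0.682). The pair with the small unadjusted p was Ackr4 in fLEC-like cells, at 25.04, 34.5 and 49.1 CPM in fixed draining libraries, against 19.9, 4.78 and 2.57 CPM in fixed non-draining libraries, which hold 7, 2 and 1 UMIs (2.00 ± 0.48, adjusted p = 0.127). The lymphocyte level of Ackr4, given above as a measure of free RNA, differed in the same direction. It was 11.22, 11.85 and 19.18 CPM in fixed draining libraries, against 7.858, 9.175 and 0 CPM in fixed non-draining libraries. In live nodes the lymphocyte level was higher in every draining library than in any non-draining one, where the fLEC-like level was lower.

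The difference between the live and the fixed draining effect was tested itself. It was called for 4 of 23 pairs, 3 higher and 1 lower, with 10 pairs under an unadjusted p of 0.05 and 6.59% of all gene and class pairs called. Per class the share was 15.3% in cLEC-like, 28.3% in fLEC-like, 9.98% in MedLEC-like and 0.799% in PRC-like cells. For Ackr2 the live effect exceeded the fixed effect by a log2 fold change of 1.203 ± 0.21 in cLEC-like cells (adjusted p = 1.49e-04) and 2.72 ± 0.49 in MedLEC-like cells (adjusted p = 4.85e-04). Within single cLEC-like clusters it was called in 1 of 5, the Fosb-led one (2.23, adjusted p = 0.0248), the others giving 0.50 to 1.33 (adjusted p = 0.0562 to 0.765), and it was called in the Marco-led MedLEC-like cluster (2.58, adjusted p = 0.0149). For Ackr4 in fLEC-like cells the difference was −3.74 ± 0.80 (adjusted p = 2.77e-04), its live effect being −1.74 and its fixed effect 2.00. Within the Mucl2-led cluster it was −1.07 and not called (adjusted p = 0.663). Median depth in fLEC-like cells was 12070 UMIs in live draining nodes, against 4067 to 5147 UMIs in the other groups. The part of free RNA and of depth in this Ackr4 difference was not tested.

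For Ackr3 in PRC-like cells the difference was 3.36 ± 0.77 (adjusted p = 0.0311). It rests on fixed non-draining B, which held 311.0 CPM on 40 UMIs, against 41.0 and 38.9 CPM in the other 2 fixed non-draining libraries on 4 and 3 UMIs. Without that library the difference was 1.44 and not called (adjusted p = 0.685). It also lost its call without live draining B (3.23, adjusted p = 0.0619), without live non-draining A, B or C (3.02 to 3.71, adjusted p = 0.0592 to 0.106) and without fixed draining A or C (3.14 and 3.11, adjusted p = 0.0599 and 0.0716). The differences did not pass for Ackr2 in CorLEC-like cells (0.72, adjusted p = 0.461) and Clec4g-high LECs (1.48, adjusted p = 0.0720). Nor did those for Ackr3 in CorLEC-like cells (2.49, adjusted p = 0.328) and Ackr4 in cLEC-like cells (−0.10, adjusted p = 0.651). For these pairs, taken over the class, the live effect was not shown to differ from the fixed effect. Within the Pglyrp1-led cLEC-like cluster alone, however, the Ackr4 difference was called (−0.63 ± 0.14, adjusted p = 0.00684). The remaining cLEC-like clusters gave −0.37 to 0.83 for Ackr4, none called.

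**Figure D5:**
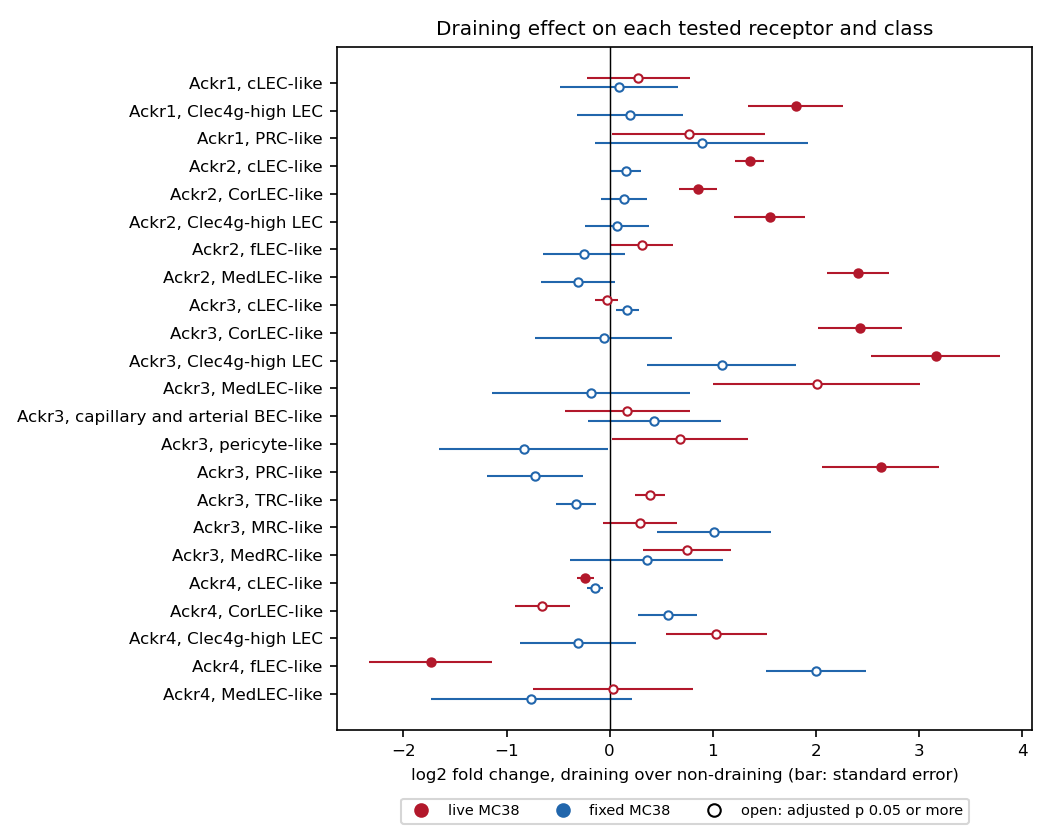
Log2 fold change of each tested receptor and class, draining over non-draining, for live MC38 (red) and fixed MC38 (blue), with standard errors as bars and open circles for adjusted p of 0.05 or more. The 10 filled circles are all live, from −1.74 for Ackr4 in fLEC-like cells to 3.16 for Ackr3 in Clec4g-high LECs, and none of the 23 fixed values is filled.

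Naive nodes gave a second baseline, which shares the live draining libraries with the comparison above. Against naive nodes 11 of 23 pairs were called in live draining nodes, 9 higher and 2 lower, where 16.1% of all gene and class pairs were called. The share was 22.9% in cLEC-like, 2.77% in CorLEC-like, 11% in Clec4g-high, 51.3% in fLEC-like, 13.7% in MedLEC-like, 14.1% in MedRC-like and 11.2% in TRC-like cells. Live non-draining against naive nodes had none called by edgeR, 8 with an unadjusted p under 0.05, none called by DESeq2 among the 11 pairs to which it gave an adjusted p, and 0.457% over all gene and class pairs.

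Ackr2 rose in all 5 lymphatic classes relative to naive nodes. In cLEC-like cells the naive libraries held 69.3, 45.0, 67.04 and 62.2 CPM, all below the 108.0 to 113.3 CPM of live draining libraries (log2 fold change 0.86, adjusted p = 1.71e-07). The log2 fold changes were 0.66 in CorLEC-like cells (adjusted p = 0.00615), 1.08 in Clec4g-high LECs (adjusted p = 0.00943) and 1.15 in MedLEC-like cells (adjusted p = 2.12e-04). Within the Marco-led MedLEC-like cluster, which held 52.9% of live draining and 29.3% of naive MedLEC-like cells, it was 0.69 and not called (adjusted p = 0.0662). In fLEC-like cells, where the live non-draining libraries gave no call, Ackr2 was 31.0 to 35.9 CPM in live draining libraries, against 10.5, 14.3, 18.3 and 19.7 CPM in naive libraries (1.47, adjusted p = 8.06e-06). The CorLEC-like call was lost without live draining B (0.53, adjusted p = 0.106), and the Clec4g-high call without live draining A (adjusted p = 0.06004) or C (0.80, adjusted p = 0.134).

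Ackr4 in cLEC-like cells was 957.3 to 1036 CPM in live draining libraries, against 1414, 1413, 1438 and 1408 CPM in naive libraries. The naive libraries lay close to each other and above every live draining library (log2 fold change −0.50, adjusted p = 8.47e-06). In fLEC-like cells it was 2.93 to 4.68 CPM, against 19.2, 46.3, 18.3 and 13.8 CPM (−2.07, adjusted p = 2.89e-05), and 0.62 within the Mucl2-led cluster (adjusted p = 0.620). The live non-draining cLEC-like level of Ackr4, 1044 to 1311 CPM, was itself below all 4 naive libraries without passing (−0.26, adjusted p = 0.110), and that of Ackr2 gave −0.50 (adjusted p = 0.120).

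Ackr3 was higher in live draining than in naive nodes in CorLEC-like cells, where the naive libraries held 42.6, 9.20, 20.6 and 28.2 CPM (log2 fold change 1.76, adjusted p = 6.97e-05). A rise was also called in TRC-like cells, with 46.6, 38.0 and 42.8 CPM in live draining libraries, against 25.1, 25.2, 28.1 and 26.1 CPM in naive libraries (0.74, adjusted p = 6.36e-05). Those groups did not overlap. In MedRC-like cells it was 9.76, 14.3 and 11.3 CPM, against 6.14, 4.91, 2.95 and 8.91 CPM (1.05, adjusted p = 0.0237), a call lost without live draining B (0.87, adjusted p = 0.164) or C (adjusted p = 0.0579) or without naive B (adjusted p = 0.0642) or C (0.86, adjusted p = 0.0771). Ackr1 in Clec4g-high LECs gave 1.40 (adjusted p = 0.0118), lost without live draining A (adjusted p = 0.0565) or C (adjusted p = 0.0800). Ackr3 was not called against naive nodes in the other 2 classes where it rose against live non-draining nodes, namely PRC-like cells (0.56, adjusted p = 0.294) and Clec4g-high LECs (1.07, adjusted p = 0.0871), where the naive libraries held 7.71, 3.94, 3.54 and 10.6 CPM. Within the Ppp1r1a-led Clec4g-high cluster Ackr3 was called (1.44 ± 0.42, adjusted p = 0.0188). The Hamp2-led MRC-like cluster was called as well (1.41 ± 0.34, adjusted p = 0.00294), while the MRC-like class was not (0.47, adjusted p = 0.197). In PRC-like cells the live non-draining libraries were lower in Ackr3 than the naive ones by a log2 fold change of −2.07 that did not pass (adjusted p = 0.337).

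The ligands of these receptors were counted in the classes where a receptor had changed between live draining and live non-draining nodes. The share of all genes called there was 24.1% in cLEC-like, 42.5% in fLEC-like, 23.2% in MedLEC-like, 10.4% in Clec4g-high, 1.9% in CorLEC-like and 4.42% in PRC-like cells, and counts over lists this short say nothing particular to the lists. Of the ligands of ACKR4, Ccl20, a chemoattractant of CCR6 cells, rose in cLEC-like cells to 33.1 ± 2.56 CPM in live draining nodes, against 0.979 ± 1.02 CPM in live non-draining nodes (SD, n = 3 each, adjusted p = 1.26e-10), 1 of 4 tested ligands there. This cLEC-like level is small beside that of the fLEC-like cells of the same libraries, and the part of free RNA in it was not tested. In fLEC-like cells 2 of 4 rose, Ccl20 to 7450 ± 514.6 CPM, against 350.2 ± 126.2 CPM (adjusted p = 1.49e-29), and Ccl19 by a log2 fold change of 1.05. In Clec4g-high LECs 2 of 4 rose, Ccl20 to 2088 ± 575.7 CPM, against 404.5 ± 99.2 CPM, and Ccl21a by 0.74, to 48.3 ± 3.37 CPM, against 26.2 ± 8.47 CPM. In CorLEC-like cells Ccl21a, the main CCR7 ligand of the node, rose to 735.1 ± 660.4 CPM, against 103.2 ± 25.5 CPM (adjusted p = 7.10e-06), with live draining libraries from 347 to 1498 CPM. Ccl21a was also the leading gene of a TRC-like cluster, and the fibroblastic markers moved in Clec4g-high LECs, as given above. The part of fibroblastic RNA in these rises of Ccl21a and Ccl19 was not tested. None of 4 changed in MedLEC-like cells and none of 2 in PRC-like cells.

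Of the ligands of ACKR3, 2 of 3 rose in cLEC-like cells. Cxcl12 was 45.9 ± 3.45 CPM in live draining nodes, against 22.2 ± 6.21 CPM in live non-draining nodes, and Adm, the gene of adrenomedullin, 100.6 ± 12.0 CPM, against 52.2 ± 10.98 CPM (adjusted p = 1.86e-06). The fibroblastic markers moved with Cxcl12 in these cells, as given above, PRC-like cells held 1938 ± 479.6 CPM of Cxcl12 in live draining nodes, against 3111 ± 1489 CPM in live non-draining nodes, and the part of fibroblastic RNA in that rise was not tested. Mif rose in Clec4g-high LECs (log2 fold change 0.61, with Cxcl12 at 0.93), in MedLEC-like cells (0.73) and in fLEC-like cells, to 261.4 ± 22.5 CPM, against 63.1 ± 15.7 CPM. The part of fibroblastic RNA in the Cxcl12 value of Clec4g-high LECs was not tested either. In CorLEC-like and PRC-like cells, where Ackr3 itself rose, none of 3 passed, Cxcl12 giving −0.61 (adjusted p = 0.264) and Adm −1.29 (adjusted p = 0.133) in PRC-like cells.

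The inflammatory chemokines that ACKR1 and ACKR2 bind fell or did not pass. In cLEC-like cells 2 of 6 tested fell, Ccl22 by 1.59 and Ccl5 by 1.2 on the log2 scale, and in Clec4g-high LECs 1 of 5, Ccl5 by 2.32. In MedLEC-like cells 1 of 4 fell, the neutrophil attractant Cxcl1, to 23.2 ± 10.7 CPM, against 137.1 ± 72.0 CPM. None of the tested members rose in the 6 classes.

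Of the machinery that carries such receptors into the cell (arrestins, receptor kinases, clathrin adaptors and Rab proteins), 3 of 15 tested genes rose and none fell in cLEC-like cells, namely Ap2m1 (log2 fold change 0.48), a subunit of the clathrin adaptor, and the endosomal Rab11a (0.47) and Rab5c (0.40). That is no larger a share than the 24.1% of all genes called in these cells. Clec4g-high LECs had 3 of 15 higher, MedLEC-like cells 4 of 15 higher, fLEC-like cells 4 higher and 1 lower of 14, and CorLEC-like and PRC-like cells none of 14. Gpr182, proposed as a further atypical chemokine receptor of lymphatic endothelium, was 326 ± 2.60 CPM in live draining cLEC-like cells, against 245.4 ± 14.1 CPM in live non-draining ones (0.43, adjusted p = 5.07e-05). In fLEC-like cells it fell to 285.9 ± 6.86 CPM in live draining nodes, against 600.0 ± 49.2 CPM. None of the 11 signaling receptors for these ligands, such as Ccr7 and Cxcr4, had enough counts for a test in these 6 classes.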

How the data were processed

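Per the labels and the study's methods, nodes were digested, enriched for podoplanin and run on a 10x Chromium kit. The values are raw counts of UMIs per gene and barcode, made by the authors with Cell Ranger 3.0.1 on mm10 and deposited without normalization for 16 libraries. No column belongs to another series.

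Cells with 200 to 6000 genes and at most 30% mitochondrial UMIs were kept, normalized with SCTransform (sctransform 0.4.2) and then clustered (Seurat 5.3.0, R 4.3.3) with 2000 variable genes, 20 principal components, a resolution of 0.8 and the seed 1448145. Lymphatic and blood endothelial cells together, and fibroblastic cells and pericytes together, were clustered again. That pooling and the scoring of the clusters by scaled marker levels were settled after the clusters were seen. Ackr4, a cLEC marker of the study, and the other 3 receptors were left out. Doublets stayed in: scrublet called 46 of 50386 cells, too few to have worked, so its 1464 highest-ranked cells were left out in 1 alternative.

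For each library and class of at least 10 cells the summed UMIs were tested with edgeR 4.0.16 (TMM, filterByExpr, quasi-likelihood fit of 5 groups over all libraries, Benjamini-Hochberg over all genes of the class). Printed CPM are per raw class sum, and folds come from the TMM fit. The fit was checked on simulated data. Alternatives included DESeq2 1.42.0. Classes were compared without a test, since they were made from the same cells. The receptors and gene lists were chosen with earlier results of these data known. Named list genes are up to 4 tested members of a list with the smallest p in each class where a receptor was called, and any other gene was chosen after its values were seen.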

Additional observations from a re-analysis of the deposited data

Results flagged for a closer look

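The difference between the live and the fixed draining effect passed its test for 4 pairs of a receptor and a class, with log2 values of 1.203 for Ackr2 in cLEC-like cells, 2.72 for Ackr2 in MedLEC-like cells, −3.74 for Ackr4 in fLEC-like cells and 3.36 for Ackr3 in PRC-like cells. The PRC-like value rests on fixed non-draining B and lost its call without that library. Within the Mucl2-led fLEC-like cluster the Ackr4 value was −1.07 and not called. The part of free RNA in the fLEC-like value was not tested.

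Of 23 naive groups of 4 libraries, 2 had a library far from the other 3, where chance gives about 1 in 20. Naive B was low in Ackr2 of CorLEC-like cells, at 101.2 CPM, against 116.3 to 119.1 CPM, and high in Ackr4 of fLEC-like cells, at 46.3 CPM, against 13.8 to 19.2 CPM.

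Some receptors were also found in immune cells, which the comparisons do not use. Ackr2 was 10.7 CPM in clusters scored as B cells (159 UMIs, in 16 of 16 libraries), with no UMI in clusters of T or NK cells. Ackr1 was 6.71 CPM in clusters scored as dendritic, 2.76 CPM in macrophages or monocytes and 4.79 CPM in a neutrophil-scored cluster led by Sirpb1c, Klra2 and Csf3r, against 0.400 CPM in T cells.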

How the results depend on the processing

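Ackr2 in cLEC-like cells kept its call between live draining and live non-draining nodes under all 10 other settings and the 16 fits that leave out 1 library (log2 fold change 1.31 to 1.40 in those 16). The number of called pairs, 10 in that comparison, was 16 with no filter on low counts and 8 to 10 with 1 library left out. In fixed nodes the count of 0 was 1 with no filter and 0 to 1 with 1 library left out. For the live against the fixed effect the count of 4 was 8 with no filter, 2 with at most 10% mitochondrial UMIs and 3 to 5 with 1 library left out. Against naive nodes the count of 11 was 16 with no filter and 9 to 12 with 1 library left out, and for live non-draining against naive nodes the count of 0 was 5 and 0 to 2. The level of Ackr1 in HEV-like cells, 295.3 CPM, was 123.0 CPM when each cell took its class from its own markers, and no HEV-like cluster was found with LogNormalize or the stricter mitochondrial limit.

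Inside single clusters Ackr4 took the opposite sign in the Igfbp5-led cLEC-like cluster (0.55 against live non-draining and 0.31 against naive nodes) and in the Mucl2-led fLEC-like cluster (0.94 and 0.62). Same-lettered libraries did not deviate together (median correlation 0.01 over 24 pairs, none over 0.1), and with the letter as a replicate block the calls were 11 for live, 0 for fixed and 5 for their difference. Calls lost elsewhere, besides those in the report, were Ackr4 in cLEC-like cells with the 12 inoculated libraries alone (adjusted p = 0.0552) or per-cell classes (0.300), Ackr2 in CorLEC-like cells with per-cell classes (0.0701) or the stricter mitochondrial limit (0.0961), Ackr3 in PRC-like cells with per-cell classes (0.0810), and under LogNormalize Ackr1 (0.722) and Ackr2 (0.360) in Clec4g-high LECs and the difference for Ackr2 in MedLEC-like cells (0.187). With the ending of the library code as a term, whose meaning is not given, the live count was 10, and Ackr1 (0.122) and Ackr2 (0.0890) in Clec4g-high LECs lost their calls against naive nodes. The causes were not tested. Depth limits the rare classes: several live non-draining values rest on under 10 UMIs. Between live draining and live non-draining nodes, DESeq2 gave no adjusted p for Ackr3 in CorLEC-like cells or for Ackr1 and Ackr3 in Clec4g-high LECs. Against naive nodes it gave none for Ackr1 in Clec4g-high LECs. DESeq2 therefore neither kept nor lost these calls.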

Other observations

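Among the dendritic-scored clusters, chosen here after their values were seen, 1 cluster of 139 cells led by Aire, Tmprss11d and Ryr3 held 78.7 CPM of Ackr1 (48 UMIs, in 14 of 16 libraries), with an Ackr1 UMI in 28.8% of its cells. Aire, the regulator of tissue antigens in the thymus, was found in 51.1% of these cells and Fscn1, an actin bundler of migratory dendritic cells, in 60.4%. Chst4, 1 of the 5 genes most like Ackr1 over the stromal classes, had no UMI there. Glycam1, an abundant secreted product of high endothelial venules that the study also uses as a marker of floor LECs, was found in 32.4%. A cluster of 1212 cells led by Cd209a and Mgl2 held 18.3 CPM of Ackr1 in 8.75% of its cells, with UMIs in 16 of 16 libraries. Mast cells held 13.9 CPM of Ackr1, on 18 UMIs found in 10 of 16 libraries.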
